A study of Mus musculus with 9 samples.

Results

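The protocadherins measured here were the 36 genes, of 38926 in the count tables, whose symbol begins with Pcdh. They were chosen by symbol alone and comprised 1 alpha gene (Pcdha2), 22 beta genes (Pcdhb1 to Pcdhb22), 1 gamma gene (Pcdhga9) and 12 non-clustered genes, and 35 of the 36 passed the filter on low counts that left 17348 genes to test. Transcripts were sequenced from whole dorsal root ganglia of lumbar levels 3 to 5, taken on the side of the treated paws from male wild-type C57BL/6 mice aged 8 to 10 weeks. Groups were given vehicle, cisplatin or oxaliplatin, the drugs by intraplantar injection and 40 µg of each in all; cisplatin and oxaliplatin are platinum chemotherapeutics that cause sensory neuropathy. There were 3 libraries per group, each from the pooled ganglia of 4 animals, so variation between single animals was not measured, and the labels do not name the vehicle solution, the injection schedule or the time of dissection.

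Protocadherins are the largest family of cadherins, calcium-dependent adhesion proteins with extracellular cadherin repeats and a single membrane span. The clustered genes lie in tandem in the alpha, beta and gamma arrays; each neuron transcribes a small set of them through promoter choice that depends on CTCF and cohesin, and the encoded proteins bind only matching partners, which gives neurites of the same cell a shared identity by which they avoid each other. Each alpha or gamma variable exon is spliced to constant exons common to its array, whereas a beta gene is a single coding exon with no constant part. The non-clustered genes, mostly of the delta group, are scattered over the genome and act in axon growth, sorting and synapse formation, and several recruit actin regulators through the cytoplasmic tail.

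Reads assigned to genes numbered 22819185 to 38808509 per library, and 3 reads, taken as the floor of detection, corresponded to 0.0711 to 0.188 CPM, a gene's reads relative to the library's TMM-scaled total and the unit of all levels here. Vehicle library 2 stood apart: its TMM factor was 0.700, where the rest had 0.960 to 1.10, and its top 10 genes took 32.9% of gene reads, where the rest had 6.81 to 8.93%. Of its recorded reads 51.0% aligned to several places, where the rest had 25.9 to 33.9%. The share of uniquely aligned reads that fell outside genes was 47.7% in vehicle library 2, 26.2 and 26.8% in the other vehicle libraries, 18.6 to 19.1% in cisplatin and 16.6 to 17.8% in oxaliplatin, so the share moved with the drugs; its part in the results was not tested. The tissue label was checked on 16 sensory neuron markers, all detected, which together stood at 21600 to 22920 CPM in vehicle, 19610 to 22100 CPM in cisplatin and 20620 to 21780 CPM in oxaliplatin.

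After cisplatin, protocadherin transcripts stood lower than after vehicle in every subgroup: 22 of the 35 tested genes (62.9%) fell, 1 rose and 12 did not pass the test (edgeR quasi-likelihood test, Benjamini-Hochberg adjusted p under 0.05 over all genes). Of all genes tested 22.9% fell and 15.8% rose, 38.7% in all. After oxaliplatin, 23 (65.7%) fell, 1 rose and 11 did not pass, against 24.1% of all genes lower and 17.5% higher, 41.6% in all. The median log2 fold change over the 35 genes was -0.45 for cisplatin and -0.43 for oxaliplatin, and over all genes 0.00 for both. Both contrasts use the same 3 vehicle libraries, and 20 protocadherins were called lower in each. Of the 35 genes, 26 had all cisplatin libraries below all vehicle libraries and 27 all oxaliplatin libraries, separations found in 26.7% and 27.4% of all genes.

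Summed over the family, the TMM-scaled level was 1392, 1245 and 1333 CPM in the vehicle libraries. It was 856 to 968 CPM after cisplatin and 840 to 999 CPM after oxaliplatin, so that all 6 drug libraries lay below all 3 vehicle libraries, with group means 32.2% and 31.3% lower. The sum of the 12 non-clustered genes was 35.0% and 33.1% lower, the beta sum 24.4% and 23.3% lower. The separation depended on the scaling. As an unscaled share of gene reads, the family stood at 0.134, 0.0871 and 0.128% in vehicle, 0.0945, 0.0931 and 0.1003% after cisplatin and 0.105, 0.0927 and 0.0967% after oxaliplatin, so that vehicle library 2 lay below every drug library. The change of the mean share against vehicle was -17.4% with cisplatin and -15.7% with oxaliplatin, or -26.6% and -25.1% without vehicle library 2. Unscaled, the change was -20.97% and -18.1% for the non-clustered sum, -23.4% and -23.8% for alpha, -7.77% and -5.77% for beta, and -0.251% and 2.48% for gamma. These are levels in whole ganglion, in which fewer cells of a type and less RNA per cell cannot be told apart.

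**Figure D1:**
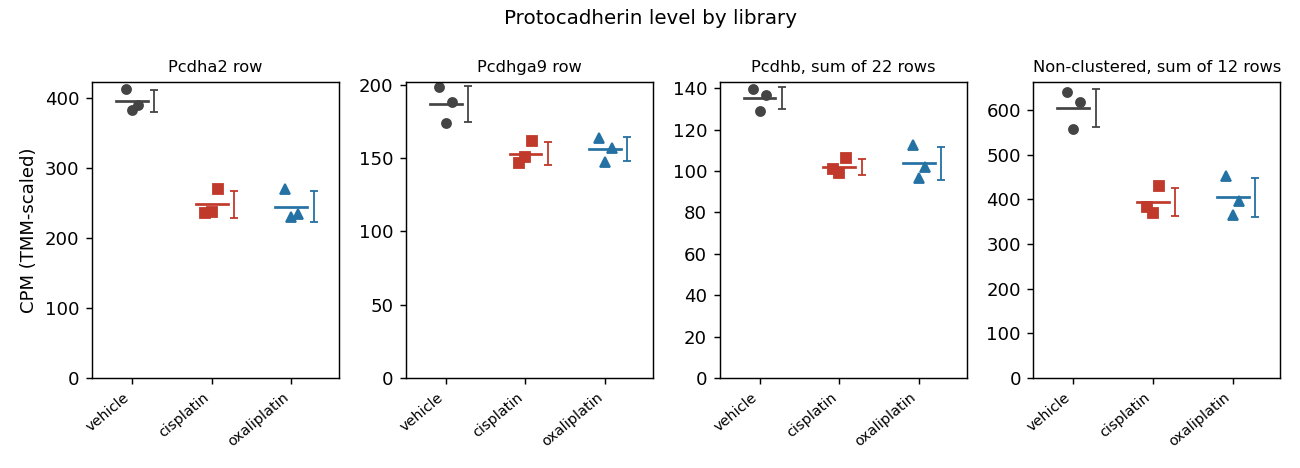
Level in CPM (vertical axis, starting at 0) of the Pcdha2 row, the Pcdhga9 row, the sum of the 22 beta rows and the sum of the 12 non-clustered rows, by group on the horizontal axis; each point is 1 library, bars are means and error bars SD (n = 3). In all 4 panels, at this TMM scaling, the drug libraries lie below the vehicle libraries, with the widest gap for Pcdha2 and the narrowest for Pcdhga9.

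**Figure D2:**
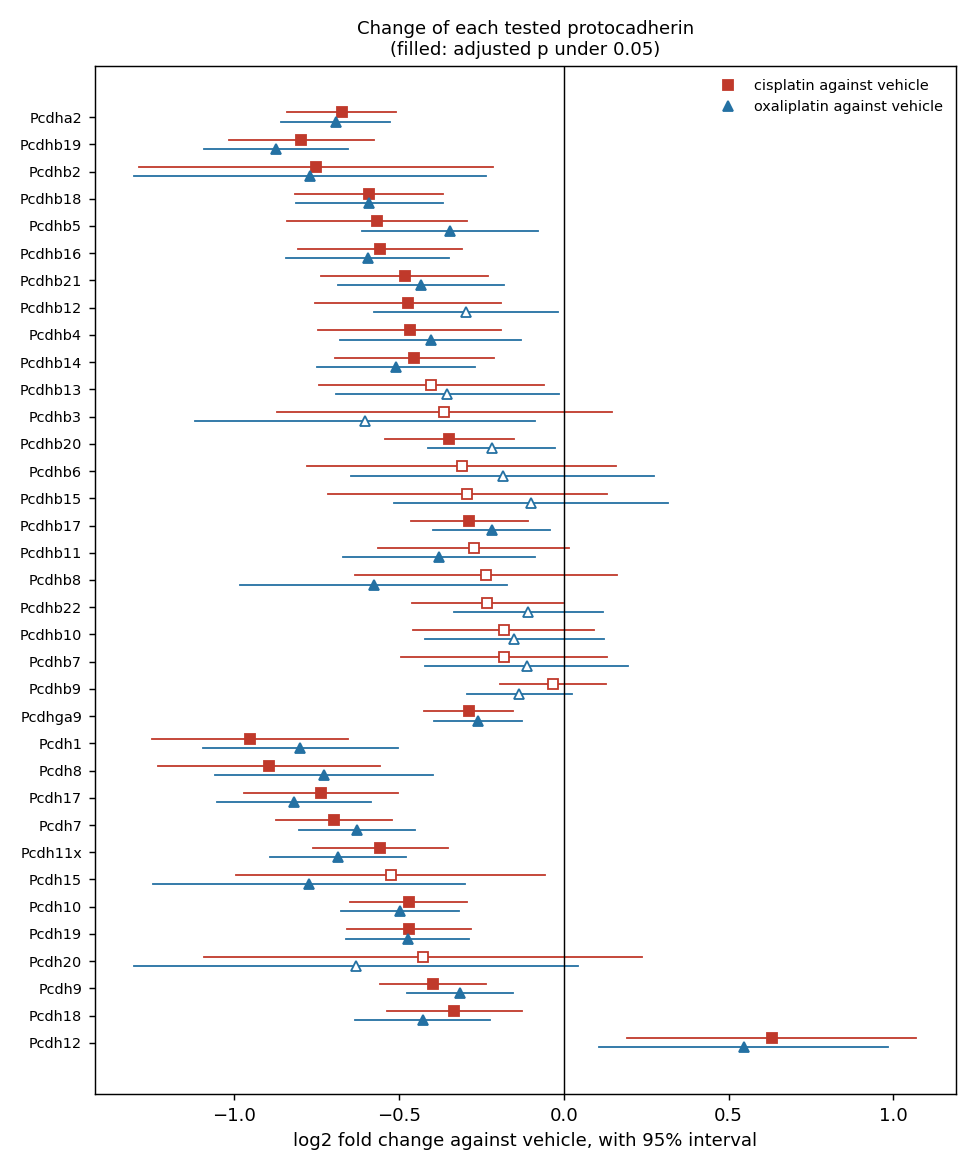
Log2 fold change against vehicle (horizontal axis) with its 95% interval for the 35 tested protocadherins, squares for cisplatin and triangles for oxaliplatin, filled where the adjusted p is under 0.05. All but Pcdh12 lie left of 0, from -0.95 (Pcdh1, cisplatin) to -0.03 (Pcdhb9, cisplatin).

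The alpha array was represented by Pcdha2 (chr18:36939205-37187657, plus strand, GRCm38), the most abundant row of the family. Its level was 414, 384 and 390 CPM in vehicle, 236, 238 and 270 CPM after cisplatin and 270, 230 and 235 CPM after oxaliplatin. The vehicle libraries were all higher than any drug library. Pcdha2 fell from 396 ± 15.5 to 248 ± 19.3 CPM with cisplatin (SD, n = 3; log2 fold change -0.67, SE 0.08, adjusted p = 6.58e-05 by edgeR) and to 245 ± 21.9 CPM with oxaliplatin (-0.69, SE 0.08, adjusted p = 4.05e-05). The annotation lists 13 alpha genes, whose transcripts share constant exons, and the other 12 have no row of their own here; of the 5361 exonic bases of Pcdha2, 2501 overlap no other gene. Whether reads of other alpha genes were counted in this row is not stated by the labels or files, so the fall is that of the row and not necessarily of the Pcdha2 variable exon.

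The gamma array was represented by Pcdhga9 (chr18:37736936-37841870, plus strand), 1 of 22 annotated gamma genes, with 3470 of its 5586 exonic bases unshared and the same doubt about what the row holds. Its level was 198, 174 and 188 CPM in vehicle, 147, 151 and 162 CPM after cisplatin and 164, 148 and 157 CPM after oxaliplatin. The groups did not overlap, although the lowest vehicle library, number 2, was close to the highest drug library. Pcdhga9 fell from 187 ± 12.2 to 153 ± 7.88 CPM with cisplatin (-0.29, SE 0.06, adjusted p = 0.00343) and to 156 ± 8.18 CPM with oxaliplatin (-0.26, SE 0.06, adjusted p = 0.00557). The oxaliplatin call was lost without vehicle library 1 (-0.19, adjusted p = 0.0516), and with library totals in place of TMM the changes were -0.00 and 0.04, neither called. The C-type genes of these arrays, Pcdhac1, Pcdhac2, Pcdhgc3, Pcdhgc4 and Pcdhgc5, have no row of their own here and so could not be analysed separately.

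A ratio of rows within a library does not depend on how libraries are scaled. Per read of Pcdhga9 there were 2.08, 2.20 and 2.07 reads of Pcdha2 in vehicle, 1.61, 1.57 and 1.67 after cisplatin, and 1.65, 1.56 and 1.498 after oxaliplatin. The alpha row thus lost more than the gamma row in both drug groups, and vehicle library 2 had the highest ratio. The non-clustered sum per Pcdhga9 read also separated the groups, at 3.20 to 3.28 in vehicle, 2.44 to 2.65 after cisplatin and 2.47 to 2.75 after oxaliplatin. So did the beta sum, at 0.704 to 0.742, 0.656 to 0.690 and 0.652 to 0.685. Such ratios still hold any trend of a library with exon length and GC content. The non-clustered genes had a median of 9630.5 exonic bases, against 5586 for Pcdhga9. With each library's trend removed, the log2 fold change was -0.29 and -0.28 for Pcdhga9 and -0.63 and -0.65 for Pcdha2. The non-clustered median, given below, was then close to the value of Pcdhga9. As shares of protocadherin reads, gamma held 13.99 to 14.3% in vehicle and 16.4 to 17.6% over the drug libraries, and alpha 29.3 to 30.9% and 26.4 to 27.95%. With 3 libraries against 3, an exact permutation test of such a ratio cannot give a p below 0.1, so none is quoted.

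The beta genes lie between chr18:37264938 and chr18:37524479, all on the plus strand. Of the 21 tested, 11 fell with each drug (52.4%, against 22.9% and 24.1% of all genes) and 10 did not pass the test. The medians were -0.36 and -0.35, and 9 genes were called lower with both drugs. All 21 estimates were below 0 for both drugs, though with library totals in place of TMM 6 stood above 0 with cisplatin and 9 with oxaliplatin. In 14 genes every cisplatin library lay below every vehicle library, and in 14 every oxaliplatin library did, a larger share than the 26.7% and 27.4% of all genes.

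Pcdhb19 changed most clearly. Its level was 18.9, 15.0 and 15.7 CPM in vehicle, 9.86, 9.16 and 9.62 CPM after cisplatin and 10.0, 8.13 and 9.02 CPM after oxaliplatin. The vehicle libraries exceeded all drug libraries by a wide margin, and the gene fell by 0.80 on the log2 scale with cisplatin (SE 0.10, adjusted p = 0.000124) and by 0.87 with oxaliplatin (SE 0.10, adjusted p = 5.59e-05). Both calls held under all 20 alternative settings.

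Pcdhb18 and Pcdhb16, its near neighbours in the array, had the next smallest p among the beta genes with both drugs. By size of change Pcdhb2, near the other end of the array, came next. It stood at -0.75 with cisplatin (SE 0.25, adjusted p = 0.0305 by edgeR) and -0.77 with oxaliplatin (SE 0.25, adjusted p = 0.0250). Both Pcdhb2 calls were lost without vehicle library 1 (adjusted p = 0.214 and 0.188). Pcdhb18 stood at 9.07, 7.20 and 8.06 CPM in vehicle, 5.30, 5.09 and 5.88 CPM after cisplatin and 5.65, 5.12 and 5.52 CPM after oxaliplatin. It fell with cisplatin (-0.59, SE 0.10, adjusted p = 0.000904) and oxaliplatin (-0.59, SE 0.10, adjusted p = 0.000821), with no overlap between vehicle and either drug. Pcdhb16 fell from 14.1 ± 0.944 to 9.62 ± 0.800 CPM (-0.56, SE 0.11, adjusted p = 0.00250) and to 9.38 ± 1.56 CPM (-0.60, SE 0.11, adjusted p = 0.00149). Neither Pcdhb18 nor Pcdhb16 was called with library totals (adjusted p from 0.0947 to 0.135).

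Pcdhb17 lies between Pcdhb16 and Pcdhb18 and was about as abundant as Pcdhb16 but changed less than either. Its level was 13.9, 13.1 and 15.4 CPM in vehicle, 12.04, 11.1 and 11.8 CPM after cisplatin and 13.2, 11.7 and 11.8 CPM after oxaliplatin. One oxaliplatin library lay above the lowest vehicle library. The change was -0.29 with cisplatin (SE 0.08, adjusted p = 0.0159), a call that needed vehicle library 3 (adjusted p = 0.0762 when left out) and cisplatin library 2 (0.0688). With oxaliplatin it was -0.22 (SE 0.08, adjusted p = 0.0475), and this call was lost on leaving out any library but vehicle 2 and oxaliplatin 1 (adjusted p 0.0569 to 0.202). Reads of Pcdhb19 per read of Pcdhb17 were 1.01 to 1.36 in vehicle, 0.813 to 0.824 after cisplatin and 0.694 to 0.765 after oxaliplatin. These close neighbours thus changed unequally on a scale that does not depend on scaling between libraries. With each library's trend with exon length and GC content removed, Pcdhb19 stood at -0.59 and -0.63 and Pcdhb17 at -0.24 and -0.16.

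Among the remaining beta genes, named here after their values were seen, Pcdhb9 had the highest vehicle level per kilobase of exon, 3.47 ± 0.146 CPM per kb, overlapping that of Pcdhb17 (3.03 ± 0.257). It showed 10.1, 10.8 and 10.9 CPM in vehicle, 10.7, 9.96 and 10.4 CPM after cisplatin and 10.1, 9.52 and 9.28 CPM after oxaliplatin. The groups overlapped, and the 95% intervals of the log2 fold change were -0.19 to 0.13 for cisplatin and -0.30 to 0.03 for oxaliplatin, which leave out the sizes seen for Pcdhb19. Pcdhb12 and Pcdhb20 were called lower with cisplatin alone, Pcdhb8 and Pcdhb11 with oxaliplatin alone; in the direct comparison of the drugs none of the 4 was called. Each of these 4 calls was lost without vehicle library 1 (adjusted p 0.0552 to 0.169), the Pcdhb8 and Pcdhb11 calls also without vehicle library 2 or oxaliplatin libraries 2 or 3 (0.0518 to 0.132), and that of Pcdhb11 without vehicle library 3 (0.0617). Conversely, Pcdhb12 passed with oxaliplatin without vehicle library 3 (adjusted p = 0.0207) and Pcdhb20 without vehicle library 2 (0.0384). Without vehicle library 1, oxaliplatin library 2 or oxaliplatin library 3, the beta genes called lower with oxaliplatin numbered 5. Of all genes 17.9%, 19.5% and 19.8% were then called lower.

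The size of the change followed neither the order of the beta genes along the chromosome nor their level: Spearman's rho across the 21 genes was -0.07 and 0.11 with position, and -0.07 and 0.09 with vehicle level per kb, for cisplatin and oxaliplatin. With exon length it was -0.29 and -0.39, and with GC content 0.29 and 0.41. These are descriptions across genes that share libraries, with no test. Pcdhb21 and Pcdhb22 overlap in the annotation, so reads in the overlap may have been counted for neither. Pcdhb1 was not tested: it had 2 reads in vehicle library 3, 1 and 2 in oxaliplatin libraries 2 and 3 and 0 in the other 6, under the floor of 3 throughout.

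**Figure D3:**
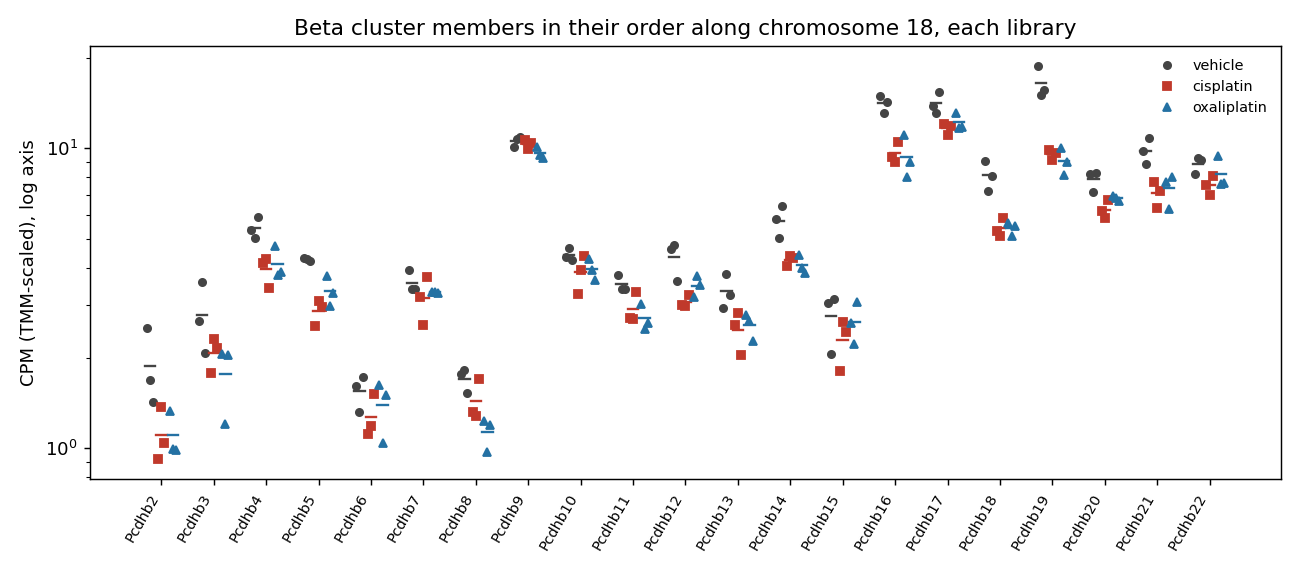
Level in CPM (log axis) of 21 beta genes in each library, ordered along the chromosome from Pcdhb2 to Pcdhb22; circles are vehicle, squares cisplatin, triangles oxaliplatin and bars the group means. Levels are highest for Pcdhb9 and from Pcdhb16 onward; the vehicle circles of Pcdhb19 stand clear above its drug libraries, and those of Pcdhb9 do not.

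The non-clustered genes differed widely in abundance. Per kilobase of exon, the vehicle level was 17.1 ± 1.63 CPM for Pcdh9, 16.0 ± 2.36 for Pcdh1, 11.1 ± 0.971 for Pcdh7, 5.28 ± 0.402 for Pcdh17, 5.18 ± 0.0864 for Pcdh10, 4.70 ± 0.478 for Pcdh18, 2.61 ± 0.115 for Pcdh19, 1.302 ± 0.198 for Pcdh8, 1.17 ± 0.129 for Pcdh11x, 0.280 ± 0.0581 for Pcdh12, 0.121 ± 0.0453 for Pcdh20 and 0.108 ± 0.0115 for Pcdh15. Neighbours overlapped in this order for Pcdh9 and Pcdh1, for Pcdh17, Pcdh10 and Pcdh18, for Pcdh8 and Pcdh11x, and for Pcdh20 and Pcdh15. Of the 12 genes, 9 fell, 1 rose and 2 did not pass with cisplatin (median -0.50). With oxaliplatin 10 fell, 1 rose and 1 did not pass (median -0.63). The shares over all genes were 22.9% and 24.1% lower and 15.8% and 17.5% higher.

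Among the delta-1 genes, whose proteins carry a longer extracellular part, Pcdh1, known for adhesion in airway epithelium, changed most. On chr18:38185914-38212053, it stood at 152, 116 and 153 CPM in vehicle, 67.9, 66.4 and 84.1 CPM after cisplatin and 96.2, 67.3 and 79.1 CPM after oxaliplatin. Vehicle library 2 was the lowest of its group but above every drug library. Pcdh1 fell by 0.95 on the log2 scale with cisplatin (SE 0.14, adjusted p = 0.000268) and by 0.80 with oxaliplatin (SE 0.14, adjusted p = 0.000706), in all 20 alternative settings. Per read of Pcdh9 there were 1.13 to 1.25 reads of Pcdh1 in vehicle, 0.768 to 0.885 after cisplatin and 0.748 to 0.965 after oxaliplatin.

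Pcdh7, whose product acts in the outgrowth of axons (chr5:57717967-58133230), stood at 130, 112 and 112 CPM in vehicle, 68.8, 69.0 and 80.1 CPM after cisplatin and 83.1, 72.5 and 73.2 CPM after oxaliplatin. Vehicle and drug libraries were apart. It fell with cisplatin (-0.70, SE 0.08, adjusted p = 7.27e-05) and with oxaliplatin (-0.63, SE 0.08, adjusted p = 0.000109), the latter not called with library totals (-0.33, adjusted p = 0.0637). Pcdh9, abundant in nervous tissue (chr14:93013410-93890679), moved less: 122, 103 and 123 CPM in vehicle, 83.6, 86.5 and 95.05 CPM after cisplatin and 99.8, 90.0 and 91.1 CPM after oxaliplatin. It fell with cisplatin (-0.40, SE 0.07, adjusted p = 0.00142) and oxaliplatin (-0.31, SE 0.07, adjusted p = 0.00520), with groups just apart; the oxaliplatin call was lost with the trend of exon length and GC content removed (-0.12, adjusted p = 0.150).

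Pcdh11x, the X-linked delta-1 gene, spans chrX:120290259-120910619 with 13946 exonic bases. Its level was 17.99, 16.5 and 14.4 CPM in vehicle, 11.6, 10.2 and 11.3 CPM after cisplatin and 10.7, 9.38 and 10.2 CPM after oxaliplatin, without overlap. It fell with cisplatin (-0.56, SE 0.09, adjusted p = 0.000748) and oxaliplatin (-0.69, SE 0.09, adjusted p = 0.000176). Once each library's trend with exon length and GC content was removed neither change was called (adjusted p = 0.995 and 0.789), and without vehicle library 2 as well the estimates were above 0 (0.06 and 0.03).

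Among the delta-2 genes, Pcdh17, whose product recruits actin regulators in growing axons, and Pcdh8, also called arcadlin, an activity-induced synaptic protein that lowers N-cadherin at the surface, were called lower with both drugs under all 20 alternatives. Their promoters are shown with that of Pcdh7 because these 3 genes, like Pcdh1, whose window is not shown, fell with cisplatin under every setting run; the 2 delta-2 windows hold a CCAAT box and that of Pcdh7 does not. Each runs from 250 bases before to 50 bases after the RefSeq transcription start (GRCm38.p6), 5′ to 3′ on the gene's strand, with CCAAT or its reverse complement ATTGG in capitals: Pcdh17 at chr14:84443313-84443612 (plus strand), Pcdh8 at chr14:79771263-79771562 (minus strand) and Pcdh7 at chr5:57717831-57718130 (plus strand).
Pcdh17: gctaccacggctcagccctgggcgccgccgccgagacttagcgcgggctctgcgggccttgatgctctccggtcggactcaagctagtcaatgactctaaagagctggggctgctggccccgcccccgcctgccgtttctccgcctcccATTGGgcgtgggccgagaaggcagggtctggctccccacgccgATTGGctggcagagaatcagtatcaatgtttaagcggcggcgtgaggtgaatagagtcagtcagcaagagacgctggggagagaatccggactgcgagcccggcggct
Pcdh8: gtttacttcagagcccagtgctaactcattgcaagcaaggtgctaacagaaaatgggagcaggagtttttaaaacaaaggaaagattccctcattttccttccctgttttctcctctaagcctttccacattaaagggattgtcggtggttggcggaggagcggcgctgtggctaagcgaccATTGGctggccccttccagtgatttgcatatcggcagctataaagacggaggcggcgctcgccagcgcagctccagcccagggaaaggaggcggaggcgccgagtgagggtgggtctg
Pcdh7: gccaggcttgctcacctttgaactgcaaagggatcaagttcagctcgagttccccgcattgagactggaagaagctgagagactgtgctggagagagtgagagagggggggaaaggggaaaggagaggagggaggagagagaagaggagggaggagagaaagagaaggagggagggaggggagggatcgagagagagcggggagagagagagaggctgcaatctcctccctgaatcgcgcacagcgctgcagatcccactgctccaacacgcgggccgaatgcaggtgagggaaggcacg

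The windows had 65.0, 54.3 and 59.3% GC and 26, 14 and 11 CpG dinucleotides, against medians of 52.7% and 7 over all 32851 windows. Among the 9 non-clustered genes with a window, 8 held CCAAT on either strand (all but Pcdh7), as did 37.4% of all windows; the 8 include Pcdh15 and Pcdh20, which were not called with cisplatin. TATAAA was found in 2 of the 9 (Pcdh8 and Pcdh15; 13.6% of all), GGGCGG in 4 (35.7%) and CCCTC in 7 (66.0%), also on both strands and with motifs allowed to overlap. The motifs were chosen with the results known and the matches are descriptions of these windows.

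Pcdh17 stood at 71.7, 62.6 and 71.6 CPM in vehicle, 42.4, 36.6 and 44.9 CPM after cisplatin and 46.0, 34.0 and 37.0 CPM after oxaliplatin. The drug libraries were all below the vehicle libraries, and the gene fell by 0.74 (SE 0.11, adjusted p = 0.000288) and 0.82 (SE 0.11, adjusted p = 0.000127) on the log2 scale. Pcdh8 stood at 6.93, 5.26 and 5.53 CPM in vehicle, 2.67, 3.25 and 3.64 CPM after cisplatin and 4.20, 3.22 and 3.34 CPM after oxaliplatin. It fell by 0.90 with cisplatin (SE 0.16, adjusted p = 0.000880) and by 0.73 with oxaliplatin (SE 0.15, adjusted p = 0.00262). At 4538 exonic bases it is the shortest of the 12 genes, and removing the length and GC trend left its change at -0.88 and -0.72.

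Pcdh10, whose product binds the WAVE complex subunit Nckap1, is long, with 15888 exonic bases on chr3:45378398-45435623. It stood at 82.3, 81.0 and 83.7 CPM in vehicle, 59.9, 54.2 and 64.3 CPM after cisplatin and 64.4, 51.1 and 59.6 CPM after oxaliplatin, with vehicle libraries closely grouped and above the rest. It fell with cisplatin (-0.47, SE 0.08, adjusted p = 0.000894) and oxaliplatin (-0.50, SE 0.08, adjusted p = 0.000577). With the length and GC trend removed the changes were -0.01 and -0.05 and neither was called, and without vehicle library 2 as well the cisplatin value turned to 0.03.

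Pcdh19, mutated in an epilepsy of girls, stood at 26.2 to 28.6 CPM in vehicle, 18.7 to 20.3 CPM after cisplatin and 16.9 to 21.4 CPM after oxaliplatin. It fell with both drugs by 0.47 (SE 0.09, adjusted p = 0.00130 and 0.00111). Its cisplatin call was lost when the length and GC trend was removed (-0.20, adjusted p = 0.0599). Pcdh18 stood at 23.1 to 28.1 CPM in vehicle, 19.6 to 20.1 CPM after cisplatin and 16.3 to 20.98 CPM after oxaliplatin, and fell by 0.33 (SE 0.09, adjusted p = 0.0151) and 0.43 (SE 0.09, adjusted p = 0.00350). The Pcdh18 call for cisplatin did not hold on leaving out vehicle library 2 (adjusted p = 0.0530) or cisplatin library 2 (0.0513).

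Pcdh12 was the exception. It encodes an adhesion protein of endothelial cell junctions, and was scarce, at 1.39, 1.63 and 2.08 CPM in vehicle, 2.55, 2.34 and 3.11 CPM after cisplatin and 2.61, 2.91 and 1.99 CPM after oxaliplatin. The cisplatin libraries lay above all vehicle libraries, while oxaliplatin library 3 lay within the vehicle range. Pcdh12 rose with cisplatin (0.63, SE 0.20, adjusted p = 0.0266) and with oxaliplatin (0.55, SE 0.20, adjusted p = 0.0462). With vehicle library 1 left out the cisplatin call was lost (adjusted p = 0.108), as with cisplatin library 3 (0.0715), and the oxaliplatin call on leaving out any library but vehicle 3, cisplatin 3 and oxaliplatin 3 (adjusted p 0.0516 to 0.165).

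Endothelial markers also stood higher in both drug groups. Of 9 such genes tested, 7 rose with cisplatin and 8 with oxaliplatin, none fell and none was at 0 (medians 0.58 and 0.66). Their summed level was 102 to 126 CPM in vehicle, 147 to 192 CPM after cisplatin and 159 to 170 CPM after oxaliplatin. Single libraries did not follow Pcdh12: oxaliplatin library 3, the lowest drug library for Pcdh12, had an endothelial sum of 170 CPM. Macrophage markers summed to 89.5 to 123 CPM in vehicle and 135 to 164 CPM over the drug libraries, with 8 and 7 of 8 called higher. Schwann cell markers summed to 3939 to 4731 and 5006 to 6470 CPM, with 7 and 3 of 8 called higher. Satellite glia markers summed to 2581 to 2889 and 3024 to 3405 CPM, yet 2 and 1 of 8 were called higher and 2 lower with each drug. Among marker lists with a called gene, the widest shifts were in blood cell markers. Erythrocyte markers summed to 36.5 to 48.8 CPM in vehicle, 91.1 to 199 CPM after cisplatin and 81.1 to 197 CPM after oxaliplatin. Of these, 5 of 5 were called higher with each drug (medians 1.92 and 1.83). Neutrophil markers summed to 42.8 to 101 CPM in vehicle, 170 to 269 CPM after cisplatin and 87.8 to 202 CPM after oxaliplatin, with 8 and 7 of 8 called higher. Fibroblast and meningeal markers (7 and 4 of 8) and pericyte and smooth muscle markers (4 and 5 of 6) were also called higher and none lower. Skeletal muscle markers varied widely between libraries, at 8.22 to 21.5 CPM in vehicle, 8.08 to 26.3 CPM after cisplatin and 7.70 to 50.2 CPM after oxaliplatin. Their medians were 0.59 and 1.37, with 0 of 6 called. Of 3 central nervous system glia markers tested, 1 was called higher and 1 lower with cisplatin, and 1 lower with oxaliplatin. Of the 16 sensory neuron markers, 5 were called lower and 2 higher with each drug. All these counts stand beside all-gene shares of 22.9% and 24.1% called lower and 15.8% and 17.5% called higher. The neuron marker shares, 31.2% lower and 12.5% higher, were near them. The part of the marker shifts in the protocadherin results was not tested.

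Pcdh15, a tip-link protein of hair cells, stood at 2.81, 2.63 and 2.28 CPM in vehicle, 2.06, 1.69 and 1.59 CPM after cisplatin and 2.06, 1.18 and 1.24 CPM after oxaliplatin. It fell with oxaliplatin (-0.77, SE 0.22, adjusted p = 0.0138), while cisplatin gave -0.53 (SE 0.21, adjusted p = 0.0713; 0.0279 without oxaliplatin library 1). The oxaliplatin call was lost without vehicle library 1 (adjusted p = 0.0701) or oxaliplatin library 2 (0.0578) or 3 (0.0562), and, with the length and GC trend removed, the values were 0.03 for cisplatin and -0.27 for oxaliplatin, neither called. Pcdh20 had 0.455 to 0.940 CPM in vehicle and 0.369 to 0.558 CPM over the drug libraries; the estimates were -0.43 for cisplatin (SE 0.31, adjusted p = 0.290) and -0.63 for oxaliplatin (SE 0.31, adjusted p = 0.122), not detectable as changes at this depth.

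**Figure D4:**
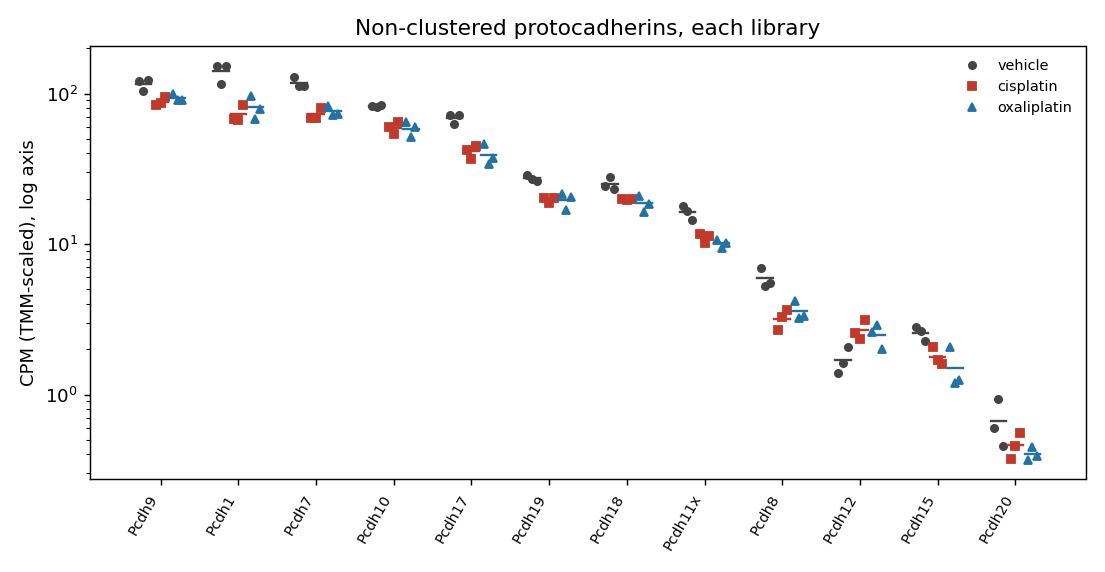
Level in CPM (log axis) of the 12 non-clustered protocadherins in each library, ordered by mean level; circles are vehicle, squares cisplatin, triangles oxaliplatin and bars the group means. The vehicle circles lie above the drug libraries for Pcdh9 to Pcdh8 and below the cisplatin libraries for Pcdh12.

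Cisplatin was then set against oxaliplatin, both given to the same cumulative dose. The edgeR test called 0 of 35 protocadherins, and 0 had an unadjusted p under 0.05; DESeq2 called 0 as well. Of all genes 0.0115% were called, 2 in number. The median difference was -0.00, the extremes were -0.22 (Pcdhb5) and 0.34 (Pcdhb8, the gene with the lowest adjusted p, 0.780), and Pcdhb8 was the 1 member whose 3 cisplatin libraries lay above the 3 oxaliplatin libraries, a separation in that direction seen in 8.04% of all genes. The opposite separation, found in 6.1% of all genes, occurred in 0 of the 35. The 95% interval of the difference was -0.15 to 0.18 for Pcdha2, -0.16 to 0.11 for Pcdhga9, -0.14 to 0.30 for Pcdhb19, -0.45 to 0.14 for Pcdh1 and -0.30 to 0.47 for Pcdh12. The median half-width of these intervals over the 35 genes was 0.25, and each interval is for 1 gene without adjustment. A call after adjustment over all genes needs more: the difference of 0.34 for Pcdhb8 had an adjusted p of 0.780 by edgeR. Differences between the drugs of 0.25, and some larger ones, could thus have gone uncalled.

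How far the family stood below vehicle depended on the scale. With library totals alone, which moved the median of all genes to 0.29 for cisplatin and 0.30 for oxaliplatin, the median protocadherin stood at -0.17 and -0.14, and 6 were called lower with each drug. Of all genes 34.5% were then called higher and 5.29% lower with cisplatin, and 36.9% and 5.74% with oxaliplatin. The calls of a fall shared by both drugs there were Pcdh1, Pcdh17, Pcdh8, Pcdha2 and Pcdhb19, with Pcdh7 called for cisplatin and Pcdh11x for oxaliplatin; Pcdh9, Pcdh10, Pcdh18 and Pcdh19 were called for neither. Pcdh12 was called higher there with both drugs (0.91, adjusted p = 0.000408, and 0.84, adjusted p = 0.00106). With vehicle library 2 also left out, a setting chosen after the data were seen, 17 and 15 were called lower. Of all genes 14.5% and 15% were then called lower and 34.2% and 35.5% higher. The log2 fold change of all genes went with exon length (Spearman's rho -0.41 for both drugs over 16380 genes, a description across genes). The tested protocadherins had a median of 5041 exonic bases, against 4059 over all genes. That median was 9630.5 for the non-clustered genes but 3714 for the 22 beta genes. Among 5623 genes between the quartiles of protocadherin length, the median change was -0.03 with cisplatin and -0.04 with oxaliplatin. In that range 24.2% and 25.6% were called lower. The protocadherin shares, 62.9% and 65.7%, are over all tested members, also those outside that range. With each library's trend with exon length and GC content removed, 18 and 17 protocadherins were called lower and the medians were -0.32 and -0.33. Of all genes 17.9% and 18.2% were called lower at that setting. The long genes Pcdh10 and Pcdh11x lost their calls there with both drugs, as did Pcdhb14.

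**Figure D5:**
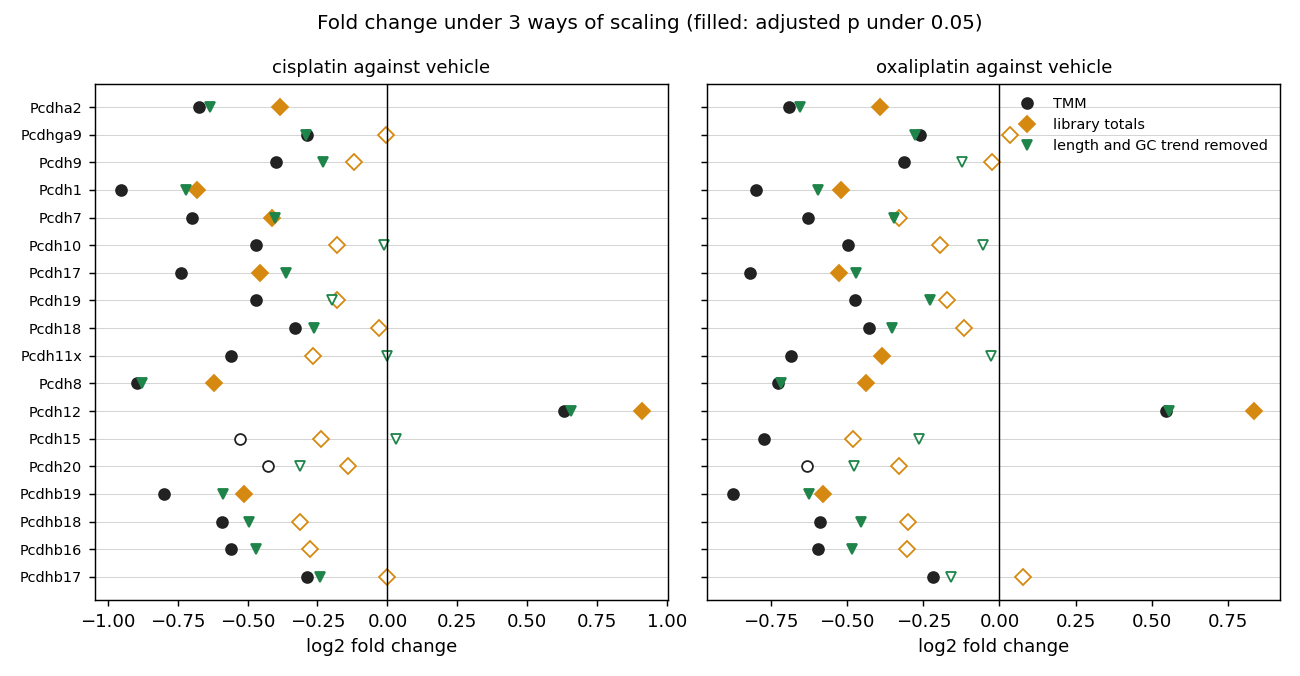
Log2 fold change against vehicle (horizontal axis) of Pcdha2, Pcdhga9, the 12 non-clustered genes and 4 beta genes under TMM (circles), library totals (diamonds) and removal of the exon length and GC trend (triangles), filled where the adjusted p is under 0.05. Pcdha2, Pcdh1, Pcdh17, Pcdh8 and Pcdhb19 stay filled and left of 0 in both panels, Pcdhga9 moves to 0 with library totals, and Pcdh10 and Pcdh11x move to 0 when the trend is removed.

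Genes that serve the family were read beside it. Over all genes, 22.9% were called lower with cisplatin and 24.1% with oxaliplatin, and 15.8% and 17.5% higher. With the length and GC trend removed these shares were 17.9% and 18.2% lower and 16.4% and 17% higher. Of 21 genes of promoter choice and silencing at the clustered arrays (CTCF, cohesin and its loaders, DNA and histone modifiers), 12 fell with cisplatin and 14 with oxaliplatin, and none rose (medians -0.30 and -0.28), but with the length and GC trend removed the medians were 0.01 and -0.01 with 5 and 4 lower and 4 and 3 higher. Nipbl, the cohesin loader, fell from 114 ± 9.39 to 69.1 ± 0.625 CPM with cisplatin (-0.73, SE 0.07, adjusted p = 2.38e-05) and to 67.9 ± 5.27 CPM with oxaliplatin (-0.75, SE 0.07, adjusted p = 1.36e-05). Pds5b, a cohesin regulator, fell from 132 ± 11.4 to 75.9 ± 2.61 and 72.8 ± 8.47 CPM (adjusted p = 4.48e-05 and 2.04e-05). Ctcf itself showed -0.08 with cisplatin (adjusted p = 0.196) and -0.15 with oxaliplatin (adjusted p = 0.0241).

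Of 23 partners and effectors of protocadherins, 11 fell with each drug (47.8%, against 22.9% and 24.1% of all genes). In this list 1 rose with cisplatin and 2 with oxaliplatin, against 15.8% and 17.5% of all genes. The medians, -0.18 and -0.14, turned to 0.12 and 0.17 with library totals. Wasf1, the actin-regulating WAVE1 protein of the complex that delta protocadherins recruit, fell from 37.7 ± 3.08 to 10.7 ± 1.11 CPM with cisplatin (-1.81, SE 0.10, adjusted p = 5.33e-06) and to 9.89 ± 1.35 CPM with oxaliplatin (-1.93, SE 0.11, adjusted p = 1.25e-06). Cyfip2, another subunit, fell from 503 ± 24.2 to 290 ± 35.9 and 295 ± 33.8 CPM (adjusted p = 0.000112 and 0.000108). Ppp1cb, a catalytic subunit of protein phosphatase 1, fell by 0.50 and 0.69 (adjusted p = 0.000471 and 5.19e-05), the cisplatin call being lost with library totals or the trend removed. Its paralog Ppp1ca rose by 0.35 and 0.43 (adjusted p = 0.000911 and 0.000236), and the kinase Fyn rose with oxaliplatin by 0.23 (adjusted p = 0.00436; with cisplatin 0.10, adjusted p = 0.142, and 0.0318 without vehicle library 3). Among further subunits, not all of those on the list, Nckap1 and Abi2 fell with both drugs, while Abi1 and Cyfip1 did not pass the test.

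Other cadherins fell as well. Of 21 classical cadherins and catenins, 14 fell with cisplatin and 12 with oxaliplatin and none rose (medians -0.30 and -0.27). The shares over all genes were 22.9% and 24.1% lower and 15.8% and 17.5% higher. With library totals 1 and 2 of the 21 fell, with medians of -0.02 and 0.03. At that scaling 5.29% and 5.74% of all genes were called lower and 34.5% and 36.9% higher. Cdh12 fell from 25.6 ± 1.35 to 13.2 ± 0.742 and 12.4 ± 0.651 CPM (-0.95 and -1.05, adjusted p = 9.52e-06 and 2.87e-06), and Cdh19, a glial cadherin, from 112 ± 8.71 to 83.0 ± 3.39 and 85.0 ± 2.52 CPM (-0.43 and -0.39, adjusted p = 0.000236 and 0.000362), not called with library totals. Of 13 other long cadherins, 8 fell and 1 rose with cisplatin and 7 fell and 1 rose with oxaliplatin (medians -0.34 and -0.27). With library totals 4 fell and 1 rose, and 3 fell and 2 rose (medians -0.05 and 0.02), and with the length and GC trend removed 5 fell with each drug and 2 and 4 rose (medians -0.20 and -0.08). Celsr2 and Celsr3, planar polarity cadherins of growing axons, fell by 1.29 and 0.84 with cisplatin and by 1.17 and 0.81 with oxaliplatin (adjusted p from 0.000101 to 0.000150). Fat2, which rose (0.95, adjusted p = 0.0416, and 1.55, adjusted p = 0.00217), had 0.404 ± 0.0875 CPM in vehicle; its cisplatin call was lost on leaving out any of 6 of the 9 libraries (adjusted p 0.0509 to 0.127). None of the genes in these 4 lists was called between the drugs; the smallest p belonged to Setdb1, Wiz, Marcks, Fyn, Cdh8, Cdh10, Dchs1 and Fat2, from -0.61 (Fat2) to 0.27 (Marcks).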

How the data were processed

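Each library has a deposited table of raw read counts per gene symbol. STAR, SAMtools and HTSeq are named by the submitters' processing notes with no version, as is the build mm10 (GRCm38). Libraries were stranded total RNA (TruSeq), read as 75-nucleotide single ends on a NextSeq 500, per the labels' protocols and the design text of the series. For annotation, strand setting and treatment of shared exons the entry is: not given in the sources used here. The 5 classes of unassigned reads, 42.8 to 74.5% of recorded reads, were left out.

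A model with 1 term per group was fitted to the counts of all 9 libraries in R 4.3.3 (limma 3.58.1, edgeR 4.0.16), after filterByExpr and TMM; the quasi-likelihood F test was two-sided, with Benjamini-Hochberg adjustment over 17348 genes for each of 3 contrasts. The SE was derived from each estimate and its F value. Alternatives, 17 planned and 3 added after the data were seen, were DESeq2 1.42.0, size factors by median ratio, library totals, other filters, the 2 groups alone, a replicate term, leaving out each library, removal of each library's trend with exon length and GC content (mgcv 1.9.3), a fit to protein-coding genes alone, and the library-total and trend fits without vehicle library 2. Simulated data with known changes were used to test the procedure.

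Positions and exon lengths come from GENCODE M21 (91.6% of symbols matched), promoters from RefSeq. Members and lists were chosen with earlier results of these data known. The text names all non-clustered genes; in each array the 3 most abundant members and the 3 called members of smallest p per contrast; the 2 genes of smallest p per contrast in each other list; and members of counts of 5 or fewer. Pcdhb2, Pcdhb9, Pcdhb14, Ctcf, Nckap1, Abi1, Abi2 and Cyfip1 were named after their values were seen.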

Additional observations from a re-analysis of the deposited data

Results flagged for a closer look

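Reads that overlapped more than 1 gene, which enter no gene's count, made up 0.593% of gene-assigned and such reads together in the cisplatin libraries and 0.604% in the oxaliplatin libraries (means, n = 3), above the vehicle libraries at 0.550, 0.427 and 0.552%. The class was looked at because reads in exons shared by overlapping genes fall into it; which genes they overlapped is not recorded.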

How the results depend on the processing

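Among called protocadherins, 6 of 23 with cisplatin and 5 of 24 with oxaliplatin kept their call in all 20 alternatives. Depth limits the scarcest genes most: Pcdh20 had an SE of 0.31 on the log2 scale.

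With library totals the counts called lower were 6 (4 non-clustered, 1 beta) for each drug. The medians were -0.17 for the family, -0.21 non-clustered and -0.0658 beta for cisplatin, and -0.14, -0.33 and -0.0519 for oxaliplatin; Pcdhga9 was at -0.004 and 0.035. Signs turned positive for cisplatin in Pcdhb9 (0.26), Pcdhb10 (0.10), Pcdhb7 (0.0981), Pcdhb22 (0.0588), Pcdhb8 (0.0461) and Pcdhb11 (0.0068), and for oxaliplatin in Pcdhb22 (0.19), Pcdhb15 (0.18), Pcdhb7 (0.18), Pcdhb9 (0.17), Pcdhb10 (0.15), Pcdhb6 (0.0975), Pcdhb17 (0.0767), Pcdhb20 (0.0747) and Pcdhb12 (0.0053). With library totals and without vehicle library 2, medians were -0.32 for the family and -0.34 non-clustered with 7 beta genes lower for cisplatin, and -0.25, -0.42 and, for beta, -0.18 with 15 lower (5 beta) for oxaliplatin; positive were Pcdhb9 (0.13 and 0.0436), Pcdhb10 (0.005 and 0.0495), and with oxaliplatin Pcdhb22 (0.0864) and Pcdhb7 (0.0273).

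With the length and GC trend removed, medians were -0.32 for the family and -0.25 non-clustered for cisplatin, and -0.33 and -0.31, with 6 non-clustered genes lower, for oxaliplatin; Pcdh15 (0.0304, cisplatin) and Pcdhb22 (0.0299, oxaliplatin) turned. Without vehicle library 2 as well, the non-clustered genes called lower were 5 and 6, medians were -0.31 and -0.15 for cisplatin and -0.30 and -0.20 for oxaliplatin, 14 genes (6 beta) were lower and 0 higher with oxaliplatin, and the turned values were Pcdh10 0.034, Pcdh11x 0.0563 and Pcdh15 0.11 for cisplatin and Pcdh11x 0.0268 and Pcdhb22 0.0927 for oxaliplatin. Of all genes 16.5% were called lower with cisplatin at that last setting and 16.8% with oxaliplatin. Without a count filter Pcdhb9 stood at 0.0088 with cisplatin. With the 2 groups alone, 0 protocadherins were called higher with oxaliplatin. The cause of these shifts was not tested.

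Leaving out 1 library at a time, the counts called lower ran from 19 to 23 with cisplatin (non-clustered 8 to 10, beta 8 to 11) and from 15 to 24 with oxaliplatin (9 to 10, and 5 to 12), the 15 without vehicle library 1, and the count called higher was 0 or 1. Over the same settings 16.8 to 22.2% of all genes were called lower with cisplatin and 17.9 to 23.7% with oxaliplatin. Protocadherin medians ran from -0.46 to -0.41 (non-clustered -0.63 to -0.45) with cisplatin. Pcdhga9 ran from -0.32 to -0.22 and from -0.29 to -0.19 against vehicle, and from -0.07 to 0.0054 between the drugs, where Pcdha2 ran from -0.048 to 0.0905. Pcdhb15 turned with oxaliplatin without vehicle library 3 (0.0045) or oxaliplatin library 2 (0.011).

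The labels do not say that replicate numbers pair the libraries. Deviations of same-numbered libraries correlated at -0.14 to 0.11, those of others at -0.23 to 0.21, and not every library correlated best with its own number. With 3 libraries per group, each taken as a deviation from its group mean, these correlations cannot exclude a pairing. With a replicate block 24 protocadherins were called lower with cisplatin and 20 with oxaliplatin, 0 higher with oxaliplatin. Of all genes 22.8% and 24% were then called lower. The median non-clustered change was -0.49 and -0.64, and Pcdha2 stood at -0.67 and -0.69.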
